A study of Mus musculus with 36 samples.

Results

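RGS proteins (regulators of G protein signalling) end the signal of G protein coupled receptors. They bind the active, GTP-loaded alpha subunit of a heterotrimeric G protein and speed up its hydrolysis of GTP, so that alpha rejoins beta and gamma and the receptor's signal stops. In macrophages and other leukocytes these receptors sense chemokines, lipid mediators, nucleotides and complement fragments, and RGS proteins set how strongly and how long the cells respond. The 8 RGS genes described here are Rgs1, Rgs2, Rgs3, Rgs10, Rgs14, Rgs16, Rgs18 and Rgs19. They were taken by name from a count table of 54532 genes in 36 RNA-seq libraries of mouse bone marrow-derived macrophages (BMDMs). Rgs1 was chosen by the measured size of its interaction of LPS and CCM in these same libraries, so its values are given as a description, with no test, and calls are counted over the other 7 genes. Those 7 and the further gene lists below were also chosen with earlier results of these data known. Their shares of called genes beside those of all genes are therefore a description.

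BMDMs of C57BL/6 background were grown with MCSF from the bone marrow of adult female mice. The KO cells (n = 6 per group) carried the genotype LysM-Cre;Bmal1 flox/flox, in which Cre under the myeloid LysM promoter deletes floxed Bmal1, and the WT cells (n = 3 per group) came from littermates with the floxed alleles and no Cre. Cells of each genotype were treated for 6 h with vehicle (DMSO), 100 µM CCM, 100 nM LPS or both. CCM (Core Circadian Modulator) is a small molecule made to bind the PASB domain of the clock protein BMAL1, and LPS is a bacterial cell wall component that activates macrophages through the receptor TLR4. By the account of the study n counts mice, while the labels tie no library to a particular mouse, and p-values measure the spread between these libraries.

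The libraries held 13469262 to 28288923 counts on genes. All 7 macrophage markers examined (Adgre1, Csf1r, Cd68, Mertk, Fcgr1, Itgam and Lyz2) were above 1 CPM in every library. Markers of other cells were present too. The neutrophil list summed to 254 to 878 CPM and the fibroblast list to 276 to 1449 CPM, while the B cell list reached 9.76 CPM and the T and NK cell list 3.13 CPM. KO replicate 6 stood apart in its 4 libraries by its summed neutrophil markers. These had 849 to 878 CPM against 254 to 737 CPM in the other KO libraries. Of this list S100a9 alone exceeded every other library (445 to 479 against 135 to 394 CPM), and Ly6g reached at most 0.562 CPM. The summed macrophage markers of KO replicate 6 overlapped with the other KO libraries, at 11179 to 13312 CPM against 11235 to 19982 CPM. Lyz2 alone had 7882 to 9461 CPM of that sum in KO replicate 6. Cd68 reached 1427 CPM there against 1248 CPM in all other libraries, while Adgre1 reached 934 against 2511 CPM. The Bmal1 transcript (Arntl) had 2.02 to 10.8 CPM in libraries labelled KO and 7.52 to 12.9 CPM in WT libraries, so the ranges overlapped. KO replicate 6 had the lowest Arntl of each KO group, with 2.87 CPM on vehicle, 4.80 on CCM, 2.02 on LPS and 3.82 on LPS+CCM. The other KO libraries had 4.52 to 10.8 CPM. A whole-gene count includes exons outside the deleted segment and does not measure the deletion itself. CPM, a gene's counts relative to the library's total, were scaled by edgeR's TMM factors. In these bulk libraries, fewer cells of a type and less RNA per cell cannot be told apart.

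The 8 genes fall into 3 families. Rgs1, Rgs2, Rgs3, Rgs16 and Rgs18 belong to the R4 family, most of whose members are small and consist of little more than the catalytic RGS domain. Rgs10 and Rgs14 belong to the R12 family, and Rgs14 also binds Ras-type GTPases and inactive alpha subunits. Rgs19 (GAIP) belongs to the RZ family and acts on the Gi class. On mouse chromosome 1 (build mm10, GRCm38) Rgs2 (ENSMUSG00000026360) lies from 143999338 to 144004161, Rgs1 (ENSMUSG00000026358) from 144242296 to 144249242 and Rgs18 (ENSMUSG00000026357) from 144752683 to 144775435, all on the minus strand and within 776 kb. That interval holds 5 RGS genes in the table, the others being Rgs13 and Rgs21. Rgs16 lies farther along the same chromosome (ENSMUSG00000026475, 153740349 to 153745468, plus strand). Rgs3 lies on chromosome 4 (ENSMUSG00000059810, 62559847 to 62704001, plus strand), Rgs10 on chromosome 7 (ENSMUSG00000030844, 128373621 to 128418758, minus strand), Rgs14 on chromosome 13 (ENSMUSG00000052087, 55369732 to 55384687, plus strand) and Rgs19 on chromosome 2 (ENSMUSG00000002458, 181688419 to 181693977, minus strand). Whether the counting used strand is not given in the sources used here. Rgs3 overlaps the antisense gene Gm11209 and Rgs16 the antisense gene Gm28513, and Rgs10 overlaps Gm15503 on its own strand, so part of those 3 counts is uncertain. The other 5 overlap no gene of GENCODE release M21.

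Promoter sequence from RefSeq (build GRCm38.p6) was matched by symbol for 5 of the 8 genes: Rgs2, Rgs3, Rgs10, Rgs16 and Rgs19. Rgs1, Rgs14 and Rgs18 had no entry. The 250 bases before the start were searched on both strands for the E-box CACGTG, which BMAL1 and CLOCK bind, the cAMP response element TGACGTCA and its 5-letter piece TGACG, which lies inside it, the AP-1 site TGANTCA, an interferon-stimulated response element and an NF-kB site. The windows of Rgs2 and Rgs10 are shown because these were the 2 tested genes with the largest falls under LPS, with matches in capitals.
Rgs2 upstream (chr1:144004150-144004399, minus strand, 5′ to 3′): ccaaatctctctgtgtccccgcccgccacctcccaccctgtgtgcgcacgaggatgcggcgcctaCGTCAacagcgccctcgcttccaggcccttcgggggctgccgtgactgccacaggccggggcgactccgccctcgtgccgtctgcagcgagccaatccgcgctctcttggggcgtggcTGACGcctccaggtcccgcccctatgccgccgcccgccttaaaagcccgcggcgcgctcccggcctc
Rgs10 upstream (chr7:128418173-128418422, minus strand, 5′ to 3′): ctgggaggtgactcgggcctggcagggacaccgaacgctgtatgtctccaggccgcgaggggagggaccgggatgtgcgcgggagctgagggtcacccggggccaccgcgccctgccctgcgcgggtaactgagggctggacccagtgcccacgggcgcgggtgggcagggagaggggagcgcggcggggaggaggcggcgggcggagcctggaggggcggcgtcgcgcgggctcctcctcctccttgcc
The Rgs2 window held TGACG at 67 bases before the start and its reverse complement at 185 bases before the start. This piece occurs in 17.8% of all 32851 promoter windows of the same length. None of the 6 motifs was found in the window of Rgs10, nor in those of Rgs3, Rgs16 and Rgs19. Over all windows CACGTG occurs in 6.02%, TGACGTCA in 1.55%, TGANTCA in 6.75%, the interferon element in 2.98% and the NF-kB site in 7.25%. A match of letters is not evidence of binding, and no match says only that these letters are not in this window.

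Unstimulated WT macrophages carried most of these transcripts at well-measured levels. To compare genes, levels were set per kilobase of the gene length in the table (RPKM). With vehicle, Rgs2 had 70.3 ± 4.10 RPKM (SD, n = 3) and Rgs10 62.0 ± 7.28 RPKM, and their libraries overlapped. Rgs1 followed with 37.6 ± 2.53 RPKM and Rgs19 with 33.0 ± 1.47 RPKM. Lower levels were found for Rgs18 (10.5 ± 0.0182 RPKM), Rgs14 (5.90 ± 0.226 RPKM), Rgs16 (4.80 ± 0.772 RPKM) and Rgs3 (0.641 ± 0.121 RPKM), and apart from Rgs2 and Rgs10 no neighbours in this order overlapped. This order depends on the lengths used. The table gives Rgs1 6947 bases, equal to its whole interval, introns included. With the 3841 bases of its longest coding transcript in GENCODE the level was 68.0 ± 4.58 RPKM, beside that of Rgs2 at its table length. The table lengths of Rgs2, Rgs3, Rgs10, Rgs14 and Rgs19 also exceed their longest coding transcripts. For Rgs10 these are 1711 and 880 bases, and for Rgs2 3627 and 3021 bases. Levels at those shorter lengths are not given, so the order holds for table lengths only.

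**Figure D1:**
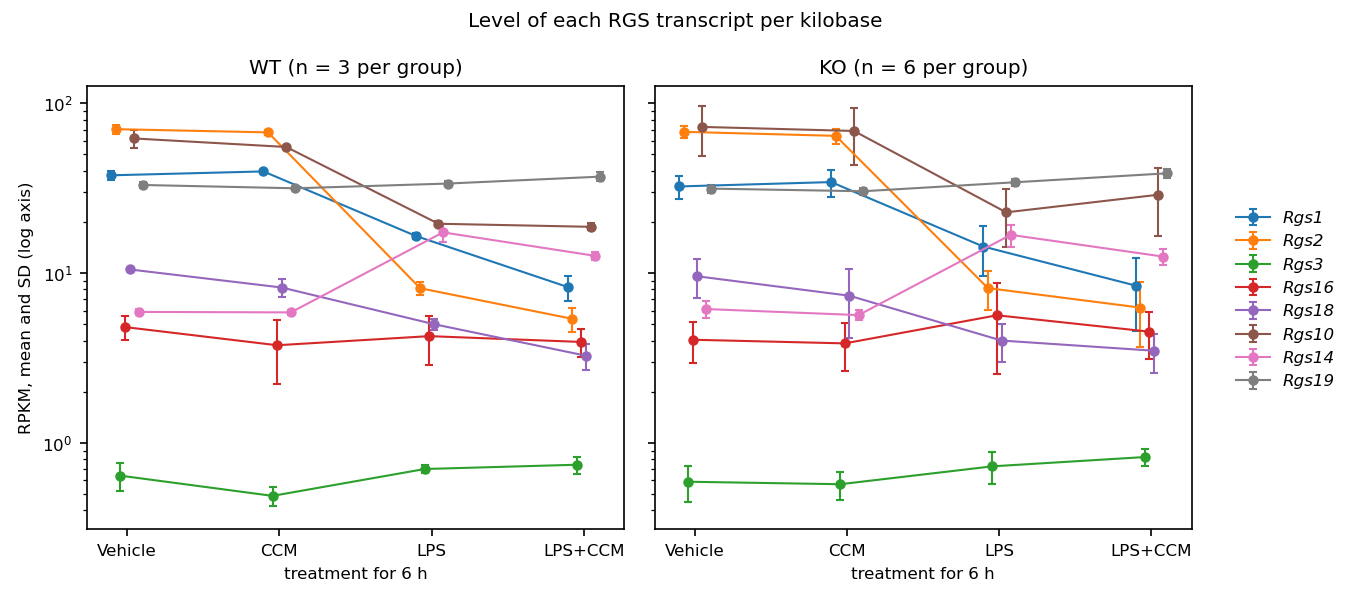
Mean RPKM (log axis) of each RGS gene in the 4 treatments, WT on the left (n = 3) and KO on the right (n = 6), with SD as error bars and lines joining group means of a gene. Rgs2 went from 70.3 RPKM with vehicle to 8.14 RPKM with LPS in WT, Rgs14 from 5.90 to 17.4 RPKM, and Rgs19 had group means between 30.3 and 38.7 RPKM over both genotypes. Every gene is drawn with its table length.

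After LPS the order was different. Rgs19 headed it in WT with 33.6 ± 1.17 RPKM, followed by Rgs10 with 19.5 ± 0.604, Rgs14 with 17.4 ± 2.10 and Rgs1 with 16.5 ± 0.614 RPKM, where Rgs14 overlapped with both of its neighbours. Rgs2 had 8.14 ± 0.761 RPKM, above Rgs18 with 4.998 ± 0.376 and Rgs16 with 4.25 ± 1.36 RPKM, which overlapped each other. Rgs3 was again lowest, with 0.701 ± 0.0387 RPKM. With LPS+CCM in WT the order from the top was Rgs19 (36.9 ± 2.16 RPKM), Rgs10 (18.7 ± 0.885), Rgs14 (12.6 ± 0.731), Rgs1 (8.27 ± 1.39) and Rgs2 (5.37 ± 0.880). Rgs16 (3.93 ± 0.739) overlapped with Rgs2 above it and with Rgs18 (3.26 ± 0.578) below it. These orders too hold for table lengths only. With the 3841 bases of its longest coding transcript Rgs1 had 29.9 ± 1.11 RPKM with LPS and 14.95 ± 2.52 RPKM with LPS+CCM in WT. In KO macrophages the libraries spread more widely, and Rgs10 (72.5 ± 23.6 RPKM, n = 6) and Rgs2 (67.8 ± 5.20 RPKM) overlapped at the top with vehicle, as did Rgs19 (38.7 ± 2.21 RPKM) and Rgs10 (28.9 ± 12.4 RPKM) with LPS+CCM.

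The first comparison asked how LPS alone changed these genes. In WT macrophages 4 of the 7 tested genes were called (edgeR quasi-likelihood test, Benjamini-Hochberg adjusted p of at most 0.05), with Rgs14 higher and Rgs2, Rgs10 and Rgs18 lower. Of all genes tested, 63% were called, so the share of 57.1% among the 7 was near the background. In KO macrophages the same 4 genes were called in the same directions, where 47.1% of all genes were called. The median log2 fold change of the 7 genes in WT was -0.14, and that of all genes tested was -0.05.

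Rgs2, which acts mainly on Gq-coupled signals, showed the largest LPS difference of the 8. It had 271, 252 and 242 CPM in the WT vehicle libraries and 28.8, 27.2 and 32.6 CPM with LPS. Every LPS library was far below every vehicle library. The log2 fold change was -3.08 (standard error, SE, 0.0794, edgeR adjusted p = 4.53e-10). In KO the lowest, median and highest libraries had 216, 250.1 and 272 CPM with vehicle and 20.3, 29.2 and 42.0 CPM with LPS, a log2 fold change of -3.06 (SE 0.155, edgeR adjusted p = 3.32e-09).

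Rgs10, a regulator abundant in microglia and other myeloid cells, fell as well. Its WT libraries had 118, 93.3 and 107 CPM with vehicle and 34.3, 32.3 and 33.5 CPM with LPS, with no overlap. The log2 fold change was -1.64 (SE 0.0826, edgeR adjusted p = 6.28e-08), and in KO it was -1.66 (SE 0.269, edgeR adjusted p = 0.000183). KO replicate 6 stood high, with 205 CPM in its vehicle and in its CCM library and 68.7 CPM in its LPS library. The other 5 KO replicates had 95.6 to 122 CPM with vehicle, and 31.9 to 34.8 CPM with LPS. Without KO replicate 6 the log2 fold change was -1.71 (edgeR adjusted p = 2.03e-11).

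Rgs18, which is best known from platelets and their precursors, had 21.3, 21.3 and 21.4 CPM in the WT vehicle libraries and 10.2, 9.38 and 10.9 CPM with LPS. The groups did not overlap, and the log2 fold change was -1.04 (SE 0.0931, edgeR adjusted p = 5.07e-06). In KO it was -1.25 (SE 0.210, edgeR adjusted p = 0.000242) and lower in 6 of 6 pairs of equal replicate number. The KO groups overlapped through 1 vehicle library, that of KO replicate 6, which had 9.68 CPM where the other 5 had 19.7 to 23.3 CPM. Without KO replicate 6 the log2 fold change was -1.30 (edgeR adjusted p = 5.58e-07). The 4 markers of megakaryocytes and platelets summed to 66.1 to 97.8 CPM with vehicle and 81.8 to 119 CPM with LPS in WT, with Itga2b, Gp9 and Ppbp above 1 CPM in every library and Gp1bb at 0 in all 6 of these libraries.

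Rgs14 was the gene called higher with LPS. Its WT libraries had 25.8, 25.3 and 23.95 CPM with vehicle and 65.3, 72.4 and 83.0 CPM with LPS. No libraries overlapped, and the log2 fold change was 1.59 (SE 0.0902, edgeR adjusted p = 1.57e-07). In KO the lowest, median and highest libraries had 22.9, 25.4 and 31.4 CPM with vehicle and 58.3, 69.9 and 87.7 CPM with LPS, a log2 fold change of 1.46 (SE 0.136, edgeR adjusted p = 1.18e-06).

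**Figure D2:**
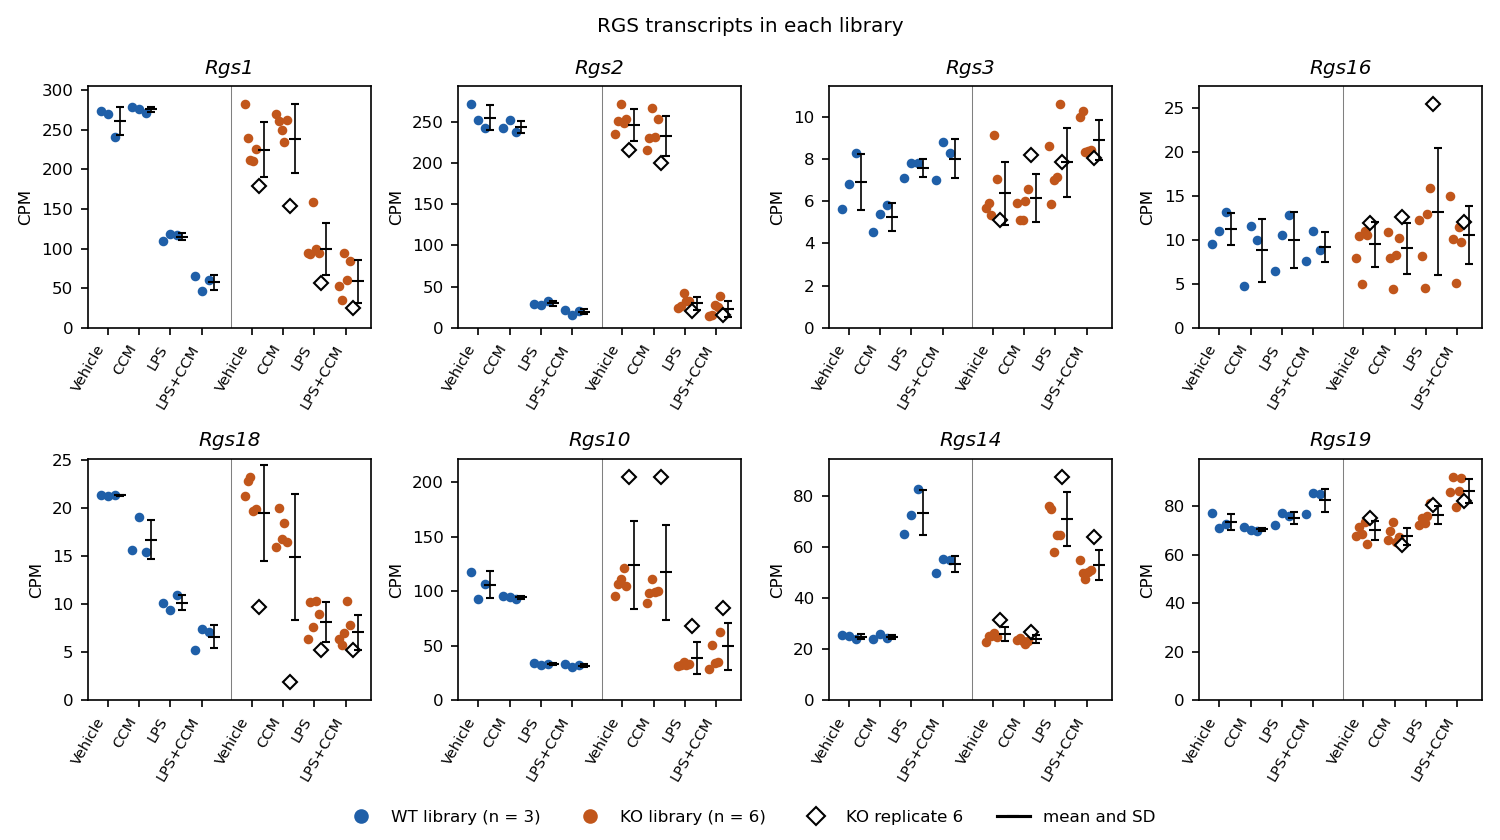
CPM of each RGS gene in every library (linear axes from 0, a panel per gene), WT in blue and KO in orange, KO replicate 6 as open diamonds, with the mean and SD of each group in black. The means of Rgs1, Rgs2, Rgs10 and Rgs18 are lower and that of Rgs14 is higher in the LPS groups of both genotypes, and KO replicate 6 lies at 205 CPM for Rgs10 with vehicle, above the other KO libraries.

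Rgs3, Rgs16 and Rgs19 were not called with LPS. Rgs19 had the smallest difference in WT, with 73.6 ± 3.28 CPM on vehicle and 75.0 ± 2.61 CPM on LPS (mean and SD of 3 libraries). Its log2 fold change was 0.06 with a 95% interval of -0.07 to 0.19 (edgeR adjusted p = 0.409). In KO it was 0.13 (95% interval -0.06 to 0.31, edgeR adjusted p = 0.249), higher in 6 of 6 pairs. The KO call was gained when the replicate number entered as a block (edgeR adjusted p = 0.0405) and without KO replicate 6 (edgeR adjusted p = 0.0397). Rgs3 had a log2 fold change of 0.16 in WT (95% interval -0.22 to 0.53, edgeR adjusted p = 0.438) and 0.31 in KO (-0.07 to 0.69, edgeR adjusted p = 0.172). Rgs16, an inducible regulator in activated lymphocytes, had -0.14 in WT (95% interval -0.64 to 0.36, edgeR adjusted p = 0.603) and 0.50 in KO (-0.28 to 1.28, edgeR adjusted p = 0.289). With total counts in place of TMM its WT value was -0.55 and was called (edgeR adjusted p = 0.0465). Its KO libraries with LPS spread from 4.47 to 25.4 CPM. The directions of Rgs3 and Rgs19 depended on scaling. Under total counts the median of all genes moved from -0.05 to -0.47 in WT and to -0.44 in KO on the log2 scale, and Rgs19 stood at -0.35 in WT (edgeR adjusted p = 0.000281) and at -0.25 in KO (edgeR adjusted p = 0.0183), Rgs3 at -0.26 and -0.09. Both values of Rgs19 lay above the shifted medians. The 4 called genes kept their directions and calls under that scaling.

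Rgs1, a regulator of chemokine-driven migration in lymphocytes and macrophages, had 273, 270.0 and 241 CPM in the WT vehicle libraries and 110.1, 118 and 117 CPM with LPS. The groups did not overlap, and the log2 fold change was -1.16 (SE 0.0634). In KO the lowest, median and highest libraries had 179, 219 and 282 CPM with vehicle and 56.9, 94.3 and 158 CPM with LPS, with a log2 fold change of -1.18 (SE 0.187). These LPS comparisons share both their vehicle and their LPS libraries with the interaction that chose Rgs1, and no test is given.

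**Figure D3:**
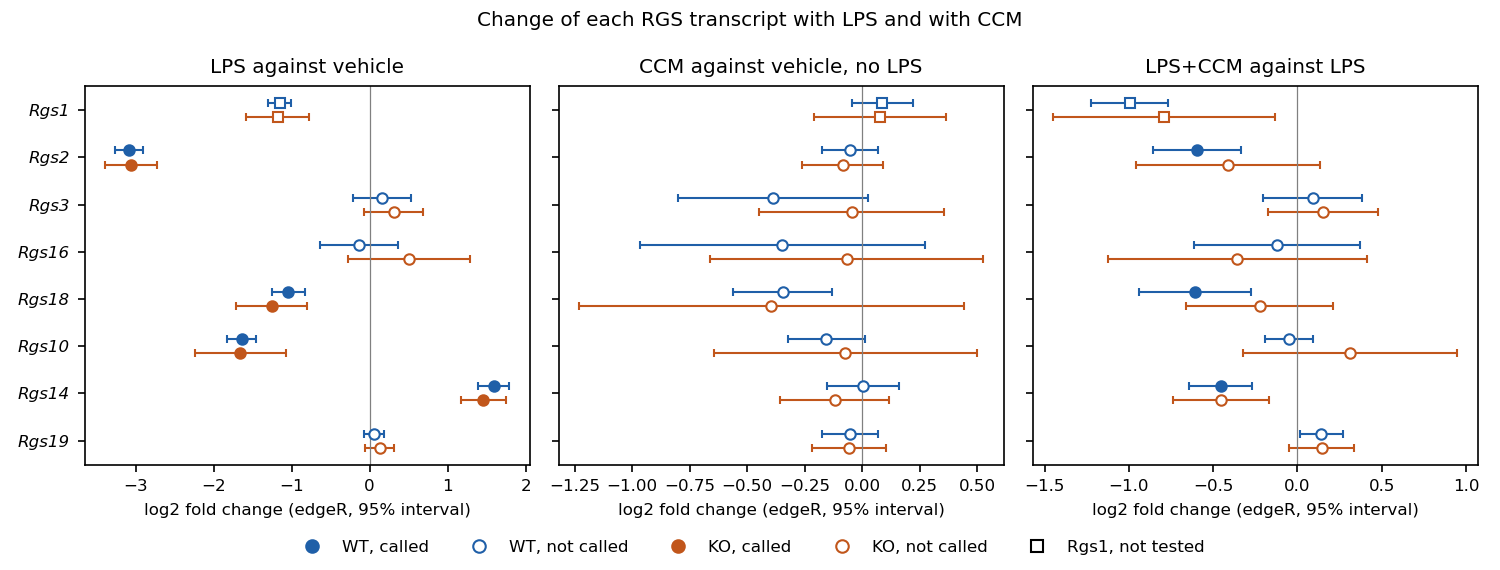
The edgeR log2 fold change of each RGS gene with its 95% interval, for LPS against vehicle (left), CCM against vehicle (middle) and LPS+CCM against LPS (right; the 3 horizontal scales differ). Blue is WT and orange KO, filled circles are called genes, and squares mark Rgs1, which was not tested. The intervals of Rgs1 make no allowance for its choice in these same libraries and are not to be read as a test. Rgs2 sits at -3.08 and -3.06 with LPS, and Rgs2, Rgs14 and Rgs18 are called lower with CCM under LPS in WT.

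The next comparison was CCM against vehicle in cells without LPS. By edgeR 0 of the 7 tested genes were called in WT, where 0.057% of all genes were called, and 0 in KO, where 0% were called. At an unadjusted p under 0.05 there was 1 such gene in WT, Rgs18, and 0 in KO, and DESeq2 also called 0 of the 7 in each genotype. Over all genes, 1404 of 14024 in WT and 333 of 13799 in KO had such a p. Rgs18 had 21.3, 21.3 and 21.4 CPM with vehicle and 15.6, 19.0 and 15.5 CPM with CCM in WT. The libraries did not overlap, with a log2 fold change of -0.35 (95% interval -0.56 to -0.13, edgeR adjusted p = 0.251). The megakaryocyte and platelet markers summed to 66.1 to 97.8 CPM with vehicle and 59.4 to 65.7 CPM with CCM in the same libraries, also without overlap, and their part in the difference was not tested. In KO the log2 fold change of Rgs18 was -0.39 (95% interval -1.23 to 0.44, edgeR adjusted p = 0.9999), and KO replicate 6 had 1.95 CPM with CCM where the next KO library had 15.9 CPM. Without KO replicate 6 it was -0.30 (edgeR adjusted p = 0.0971). The intervals of the other 6 genes in WT reached from -0.97 at the lowest (Rgs16) to 0.27 at the highest (Rgs16). For Rgs2 the interval was -0.17 to 0.07 and for Rgs14 -0.15 to 0.16. Rgs1 had 278, 277 and 272 CPM with CCM against 241 to 273 CPM with vehicle, groups that overlapped, and a log2 fold change of 0.09 (SE 0.0587).

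Under LPS, CCM lowered 3 of the 7 tested genes in WT macrophages, Rgs2, Rgs14 and Rgs18, where 11.9% of all genes were called. Rgs2 had 28.8, 27.2 and 32.6 CPM with LPS and 22.2, 16.0 and 20.3 CPM with LPS+CCM. All 3 LPS+CCM libraries were below all 3 LPS libraries, and the log2 fold change was -0.60 (SE 0.117, edgeR adjusted p = 0.00866). This is the direction that Rgs2 also had with LPS alone, in a comparison that shares the LPS libraries. In 1 fit of all 36 libraries, which also holds the KO groups, none of these 3 calls remained (edgeR adjusted p = 0.735 for Rgs2, 0.362 for Rgs14 and 1 for Rgs18). With the replicate number as a block the calls held (edgeR adjusted p = 2.44e-05 for Rgs2, 4.97e-06 for Rgs14 and 0.00248 for Rgs18).

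Rgs14, which LPS raised, was lower with LPS+CCM than with LPS, in a comparison that shares the WT LPS libraries. It had 65.3, 72.4 and 83.0 CPM with LPS and 49.9, 55.4 and 55.2 CPM with LPS+CCM, without overlap, and remained above the vehicle libraries at 23.95 to 25.8 CPM. The log2 fold change was -0.45 (SE 0.0841, edgeR adjusted p = 0.00638). Rgs18 had 10.2, 9.38 and 10.9 CPM with LPS and 5.27, 7.44 and 7.14 CPM with LPS+CCM, also without overlap, with a log2 fold change of -0.61 (SE 0.149, edgeR adjusted p = 0.0256). Its call was lost without WT LPS replicate 2 (edgeR adjusted p = 0.0521), WT LPS replicate 3 (adjusted p = 0.0860) or WT LPS+CCM replicate 1 (adjusted p = 0.0531). The summed megakaryocyte and platelet markers were 81.8 to 119 CPM with LPS and 42.6 to 83.9 CPM with LPS+CCM in these libraries, and their part in the difference of Rgs18 was not tested.

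Rgs19 was higher with LPS+CCM in 3 of 3 pairs, with 72.1, 77.2 and 75.7 CPM against 76.8, 85.2 and 85.1 CPM. The groups overlapped, and the log2 fold change of 0.14 (SE 0.0569) was not called (edgeR adjusted p = 0.144). Libraries of equal number deviated together here, and a fit blocked on that number called Rgs19 (edgeR adjusted p = 0.0240), as did scaling by total counts (edgeR adjusted p = 0.0282). Rgs10 had a log2 fold change of -0.05 (95% interval -0.19 to 0.09), Rgs3 one of 0.09 (-0.20 to 0.39) and Rgs16 one of -0.12 (-0.61 to 0.37), and none of them was called.

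In LPS-treated KO macrophages 0 of the 7 tested genes were called for CCM by edgeR, where 0.112% of all genes were called. At an unadjusted p under 0.05 there was 1, Rgs14, beside 1070 of 13386 genes, and DESeq2 called 0. Rgs14 had a lowest, median and highest library of 58.3, 69.9 and 87.7 CPM with LPS and 47.7, 50.8 and 63.9 CPM with LPS+CCM. The groups overlapped, but each LPS+CCM library was below the LPS library of its number, in 6 of 6 pairs. The log2 fold change was -0.45 (SE 0.133, edgeR adjusted p = 0.269), and the call was gained without KO replicate 6 (edgeR adjusted p = 0.0441) and in a fit of all 36 libraries (edgeR adjusted p = 0.0142). Rgs2 had 20.3, 29.2 and 42.0 CPM with LPS and 14.0, 20.5 and 38.2 CPM with LPS+CCM, lower in 5 of 6 pairs, and a log2 fold change of -0.41 (95% interval -0.96 to 0.14, edgeR adjusted p = 0.758). Rgs18 had -0.22 (95% interval -0.66 to 0.21, edgeR adjusted p = 0.852). Rgs10 had 31.9, 33.1 and 68.7 CPM with LPS and 28.8, 43.1 and 84.4 CPM with LPS+CCM, a log2 fold change of 0.31 (95% interval -0.33 to 0.95, edgeR adjusted p = 0.854). Rgs19 was higher in 6 of 6 pairs, by 0.14 on the log2 scale (95% interval -0.05 to 0.34, edgeR adjusted p = 0.758).

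Rgs1 had 110.1, 118 and 117 CPM in the WT libraries with LPS and 65.2, 46.6 and 60.5 CPM with LPS+CCM, without overlap, and a log2 fold change of -0.995 (SE 0.102). The LPS+CCM libraries were thus the farthest from the vehicle libraries, which had 241 to 273 CPM. The B cell markers, from a lineage in which Rgs1 is abundant, summed to 2.04 to 3.07 CPM with LPS and 1.72 to 2.03 CPM with LPS+CCM in WT, and their part in the difference was not tested. In KO the lowest, median and highest libraries had 56.9, 94.3 and 158 CPM with LPS and 25.4, 56.8 and 94.2 CPM with LPS+CCM. The groups overlapped, it was lower in 6 of 6 pairs, and the log2 fold change was -0.79 (SE 0.305), or -0.74 without KO replicate 6. The CCM differences of Rgs1 with and without LPS are the parts of the interaction that chose it, and no test is given.

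**Figure D4:**
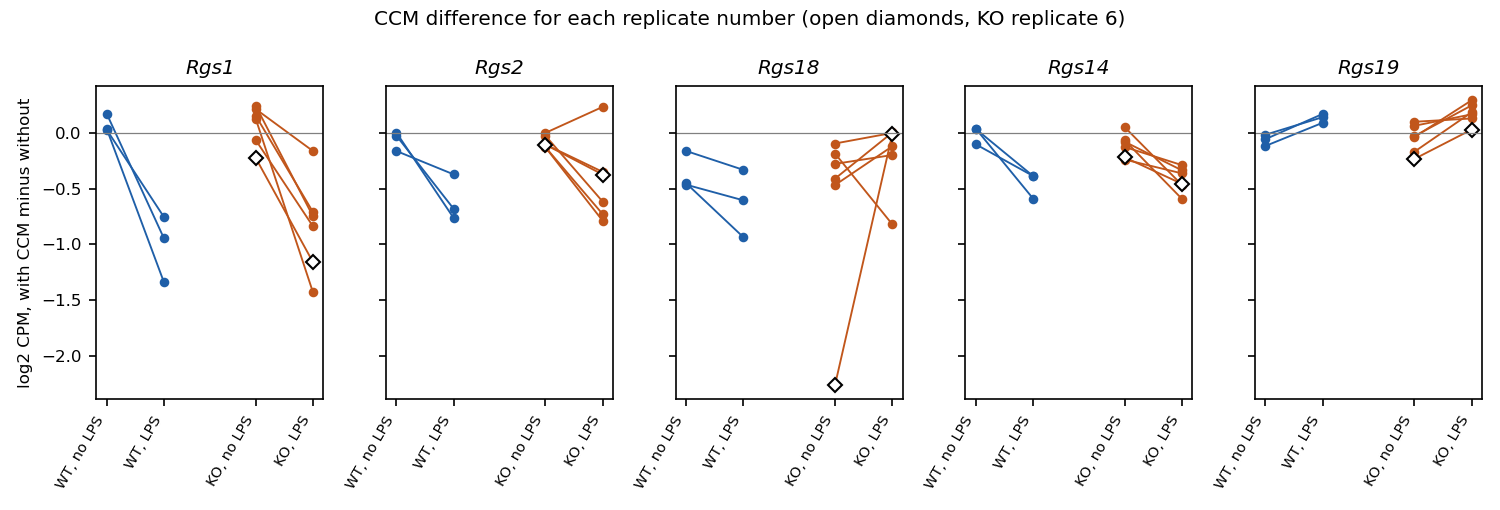
The difference in log2 CPM between libraries with and without CCM of the same replicate number, for cells without LPS and with LPS, WT in blue and KO in orange, joined by lines per replicate number; open diamonds are KO replicate 6. In WT the Rgs1 differences lie between 0.03 and 0.17 without LPS and between -1.34 and -0.76 with LPS, and the Rgs18 difference of KO replicate 6 without LPS lies at -2.26.

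Whether the CCM difference itself changed with LPS was read from the interaction of LPS and CCM. In WT it was called for 2 of the 7 tested genes, where 2.09% of all genes were called. It was -0.56 on the log2 scale for Rgs2 (SE 0.133, edgeR adjusted p = 0.0465) and -0.47 for Rgs14 (SE 0.114, edgeR adjusted p = 0.0490), each more negative with LPS in 3 of 3 pairs. Both p-values lay just under the threshold, and each call was lost in 13 of 18 alternative settings, 11 of which left out a single library. With the replicate number as a block both calls held (edgeR adjusted p = 0.0202 for Rgs2 and 0.0236 for Rgs14). Over these settings the adjusted p (edgeR or DESeq2) ran from 6.62e-05 to 0.9999 for Rgs2 and from 0.00504 to 0.9999 for Rgs14. For Rgs18 the interaction was -0.28 (95% interval -0.64 to 0.09, edgeR adjusted p = 0.526) and for Rgs19 0.18 (0.02 to 0.34, edgeR adjusted p = 0.293). The others had adjusted p-values of 0.377 (Rgs3), 0.771 (Rgs10) and 0.874 (Rgs16). In KO, 0 of the 7 were called by edgeR and 0 by DESeq2, where 0.00685% of all genes were called. Rgs19 was the 1 of the 7 with an unadjusted p under 0.05, beside 536 of 14588 genes. The KO values were -0.30 for Rgs2 (95% interval -0.87 to 0.26) and -0.31 for Rgs14 (-0.66 to 0.03). For Rgs1, whose choice rested on this interaction, it was -1.10 (SE 0.130) in WT and -0.85 (SE 0.344) in KO. Per pair it ran from -1.38 to -0.78 in the 3 WT pairs and from -1.56 to -0.38 in the 6 KO pairs.

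The genotypes were then compared directly. Between KO and WT macrophages 0 of the 7 tested genes were called with vehicle or with LPS by edgeR, where 0% of all genes were called in each. None of the 7 had an unadjusted p under 0.05 in either, where 118 of 14385 and 105 of 13794 genes did, and DESeq2 called 0. With vehicle Rgs2 differed by -0.01 (95% interval -0.21 to 0.20) and Rgs19 by -0.02 (-0.24 to 0.20) on the log2 scale, while the interval of Rgs10 was -0.29 to 0.86. The interaction of genotype and LPS was called for 0 of the 7, and so was that of genotype and CCM in LPS-treated cells, with 0% of all genes called in each. None of the 7 had an unadjusted p under 0.05 in the former (112 of 15093 genes did) or in the latter (72 of 14546), and DESeq2 called 0. In the latter, the difference between the CCM differences of KO and WT was 0.01 for Rgs14 (95% interval -0.41 to 0.44), 0.20 for Rgs2 (-0.62 to 1.02) and 0.40 for Rgs18 (-0.25 to 1.06). For Rgs1 it was 0.22 (SE 0.460). The CCM differences of Rgs2, Rgs14 and Rgs18 under LPS are therefore not shown to differ between genotypes.

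Few other RGS genes were detected. Of 15 further family genes and binding partners in the table, Rgs21 was at 0 in every library and 4 passed the filter on low counts for LPS in WT. Of these, 1 was called higher and 2 lower, where 63% of all genes were called. Rgs12 had 9.81 CPM with vehicle and 6.21 CPM with LPS in WT, a log2 fold change of -0.64 (SE 0.149, edgeR adjusted p = 0.00376). Rgs11 had 2.91 CPM with vehicle and 0.959 CPM with LPS, a log2 fold change of -1.59 (SE 0.278, edgeR adjusted p = 0.000621). The gene called higher was Rgs9, which stayed under 2.25 CPM in every library.

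The partners of RGS proteins were measured in the same libraries. Of 58 genes of the G protein pathway (alpha, beta and gamma subunits, receptor kinases and arrestins, other regulators and effectors), 48 were tested for LPS in WT, and 18 were called higher and 22 lower. In KO 13 were higher and 16 lower of 48. Called genes made up 83.3% of those tested in WT and 60.4% in KO, beside 63% and 47.1% of all genes, and no test of that difference was made. Pde4b, a phosphodiesterase that breaks down cAMP, had the largest rise, with 14.2 CPM with vehicle and 254 CPM with LPS in WT (log2 fold change 4.19, SE 0.135, edgeR adjusted p = 2.2e-09). Gnb4, a beta subunit, rose by 1.62 and Gpsm2, which holds inactive alpha subunits, by 1.499 on the log2 scale. Adcy3, an adenylyl cyclase, fell by 2.23, the gamma subunit Gng7 fell by 1.89 and Plcb2, a phospholipase C that Gq and beta-gamma activate, fell by 1.76. The same 6 genes were called in the same directions in KO. They are the 3 largest changes in each direction among pathway genes with an average log2 CPM of at least 1.

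With CCM under LPS in WT, 4 of 46 tested pathway genes were called higher and 6 lower, in all 21.7%, beside 11.9% of all genes. In KO 0 of 46 were called by edgeR, beside 0.112% of all genes, and 1 by DESeq2. At an unadjusted p under 0.05 there were 6 in KO, beside 1070 of 13386 genes. Gnb4 had 63.4 CPM with LPS and 36.1 CPM with LPS+CCM (log2 fold change -0.81, SE 0.0567, edgeR adjusted p = 3.11e-05). The alpha subunits Gna15 and Gna13 fell by 0.31 and 0.29 on the log2 scale. Arrb1, an arrestin that binds phosphorylated receptors, rose by 0.42, the receptor kinase Grk6 by 0.29 and the alpha subunit Gna12 by 0.22. Gna13 was the 1 pathway gene called for the interaction of LPS and CCM in WT, at -0.43 (SE 0.0788, edgeR adjusted p = 0.0134). That is 2.08% of the 48 tested, beside 2.09% of all genes, and DESeq2 called 3. Without LPS, edgeR called 0 of 48 pathway genes for CCM in WT and 0 of 49 in KO, and DESeq2 called 0. At an unadjusted p under 0.05 there were 5 in WT and 1 in KO, beside 1404 of 14024 and 333 of 13799 genes.

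The genes whose log2 CPM followed Rgs1 most closely over all 36 libraries, of 11487 genes compared, were Cytip (Pearson's r = 0.957), the interleukin 7 receptor gene Il7r (0.940), Plau, which encodes urokinase (0.938), Basp1 (0.936) and Hpgds (0.934). The 36 points share treatments and libraries, and no test is given. By Spearman's rho 2 of these 5 remained among the first 5 (Il7r and Hpgds), and over the 12 WT libraries 1 (Cytip). For the other members the closest gene was Arl4c for Rgs2 (r = 0.992), Atraid for Rgs10 (0.989), Aldh1b1 for Rgs14 (0.989), Fam84b for Rgs18 (0.928), Kctd12 for Rgs19 (0.852), Gja1 for Rgs3 (0.848) and Kctd11 for Rgs16 (0.834). Among the members, Rgs1 and Rgs2 had r = 0.929 over all libraries and 0.961 over the WT libraries, and Rgs2 and Rgs14 had r = -0.930 and -0.924.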

How the data were processed

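Poly(A) RNA of 36 BMDM libraries was sequenced in pairs. Per the methods of the study and the submitters' processing notes, the authors trimmed reads with fastp, aligned them to mm10 with HISAT2 2.0.5 and counted them per gene with featureCounts 1.5.0-p3. The deposited values are raw counts for 54532 genes, and 0 count columns were left out. Groups came from the sample labels. The members and gene lists were chosen with earlier results of these data known.

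Counts were tested with edgeR 4.0.16 (R 4.3.3; filterByExpr, TMM scaling, quasi-likelihood test, two-sided), using only the groups compared, with Benjamini-Hochberg adjustment over all genes tested and calls at an adjusted p of at most 0.05. Every member was named. Of the other RGS and pathway genes, up to 3 called genes per direction were named, with an average log2 CPM of at least 1. Standard errors and 95% intervals were derived from the log2 fold change and the F statistic of the quasi-likelihood test. For correlations, log2 CPM used a prior count of 2. The fit was first tested on simulated data. The alternatives were RLE size factors, total counts alone, DESeq2 1.42.0, no filter beyond 1 count, 1 fit of all 36 libraries, the replicate number as a block and leaving out libraries. Replicate libraries differed beyond sampling noise (lowest chi-square over its degrees of freedom 4.34). Same-numbered libraries deviated together in every pair for LPS in KO (r from 0.298 to 0.830), CCM without LPS in KO (0.337 to 0.844) and CCM under LPS in WT (0.151 to 0.360), as judged from the data, since the labels give only numbers.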

Additional observations from a re-analysis of the deposited data

Results flagged for a closer look

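In 6 of 32 sets of KO libraries examined (8 genes in 4 treatments, 6 libraries each), 1 library stood apart from the other 5 by Dixon's test of the gap to the nearest library at the 95% level, and in all 6 it was KO replicate 6. Chance flags about 1 in 20 independent sets, but these sets share libraries, so their number is no measure of chance. For Rgs10 it had 204.5 CPM with vehicle, 205.4 CPM with CCM and 68.7 CPM with LPS, where the nearest libraries had 122, 111 and 34.8 CPM. For Rgs18 it had 9.68 CPM with vehicle and 1.95 CPM with CCM, where the nearest had 19.7 and 15.9 CPM. For Rgs1 it had 153 CPM with CCM, where the nearest had 234 CPM. In the same 4 libraries the neutrophil markers summed to 849 to 878 CPM against 254 to 737 CPM in the other KO libraries (4 of 6 markers above 1 CPM in all), the B cell markers to 4.55 to 9.76 against 1.21 to 4.6005 CPM, and the T and NK cell markers to 1.07 to 3.13 against 0.0559 to 0.847 CPM with Ncr1 at 0. Of the neutrophil markers S100a9 alone lay above every other library there, at 445 to 479 CPM against 135 to 394 CPM. Arntl was also the lowest of each KO group in these 4 libraries, at 2.02 to 4.80 CPM. The part of these markers and of Arntl in the values was not tested.

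The difference between CCM and no CCM in WT passed the test of an interaction with LPS for Rgs2 (interaction -0.56 on the log2 scale) and Rgs14 (-0.47) by edgeR (adjusted p = 0.0465 and 0.0490). Each of these calls was lost in 13 of 18 alternative settings. For Rgs1, CCM was higher than vehicle without LPS and lower with LPS in each of the 3 WT pairs, with a mean interaction of -1.09, which was not tested because Rgs1 was chosen for it. For Rgs19 each of the 3 pairs was lower without LPS and higher with LPS, with a mean interaction of 0.20 that did not pass the edgeR test (adjusted p = 0.293).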

How the results depend on the processing

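The LPS calls of Rgs2, Rgs10, Rgs14 and Rgs18 held under all 12 alternatives in both genotypes. The calls for CCM under LPS in WT went from 3 to 0 in 1 joint fit of all 36 libraries, and those for the interaction of LPS and CCM in WT from 2 to 0 in that fit, to 0 with total counts, and to 0 to 1 when single libraries were left out. For CCM under LPS in KO there was 1 call, Rgs14, in the fit of all 36 libraries, without KO replicate 6 and with the replicate block (log2 fold change -0.45, adjusted p = 0.00821). In that comparison, in LPS in WT and in CCM without LPS in WT the weakest correlation of a pair of equal number was low or negative (-0.10, 0.05 and 0.05). In LPS in WT all were positive (0.047 to 0.173). The block is given only as an alternative in these comparisons. Apart from Rgs14 here and Rgs19 in LPS in KO and in CCM under LPS in WT, the block changed no call of a member.

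With total counts the sign turned for LPS in WT of Rgs3 (-0.26) and Rgs19 (-0.35), LPS in KO of Rgs3 (-0.088) and Rgs19 (-0.25), CCM without LPS in WT of Rgs14 (-0.00170, and -0.000336 with no filter), CCM under LPS in WT of Rgs10 (0.028) and the genotype by CCM interaction of Rgs14 (-0.047). The split of called genes into higher and lower moved from 4441 and 4698 to 2551 and 8060 for LPS in WT, from 3060 and 3373 to 1825 and 5708 for LPS in KO, from 564 and 1057 to 1539 and 733 for CCM under LPS in WT, and from 69 and 239 to 230 and 117 for the interaction in WT.

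Leaving out replicates turned the sign of Rgs16 for LPS in WT (-0.36 to 0.081), CCM under LPS in WT (-0.33 to 0.10), CCM without LPS in KO (-0.17 to 0.00158) and the interaction in WT (-0.075 to 0.46) and KO (-0.43 to 0.057), of Rgs3 for CCM without LPS in KO (-0.23 to 0.086), and of Rgs14 for CCM without LPS in WT (-0.027 to 0.030) and the genotype by CCM interaction (-0.082 to 0.090). None of these was called in any of those settings, and the cause was not tested.

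Counts of called genes over the whole table moved more widely. For CCM without LPS, edgeR called 8 genes in WT and DESeq2 247, with 377 without the filter, 255 with the block and 0 in the joint fit; in KO the counts were 0, 24 by DESeq2, 429 with the block and 141 without KO replicate 6. For CCM under LPS they were 1621 in WT, 3220 with the block and 17 in the joint fit, and 15 in KO, 180 by DESeq2, 777 with the block and 285 in the joint fit. For the interaction they were 308 in WT, 696 by DESeq2, 721 without the filter, 548 with the block and 0 in the joint fit, and 1 in KO, 12 by DESeq2 and 81 with the block. For LPS in KO the count was 6433, with 9774 with the block and 9612 without KO replicate 6, and for LPS in WT 9139, with 5644 in the joint fit.

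Of the log2 fold changes of single members under all alternatives, 805 kept their direction and, in the tested genes, their side of the threshold. The call was lost in 32 and gained in 8, and 23 turned sign. Rgs1 had no call, so its values, included here, were judged by size of change alone, and 2 values were counted as moved. DESeq2 gave no adjusted p for Rgs3 and Rgs16 in the interaction in WT. No blocked fit was made between the genotypes, since the labels do not link KO and WT replicates. Precision in KO was limited by the spread between libraries, and Rgs18, Rgs3 and Rgs16 had the fewest counts, down to 28, 66 and 70 in a library. Intervals and standard errors cover the spread between libraries and not the choice of setting or, for Rgs1, the choice of the gene.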
